A study of Mus musculus with 12 samples.

Results

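Gene expression in the eyes of mice lacking the glucocorticoid receptor gene Nr3c1 in the retina (cKO) was set against that of wild type (WT) eyes during subjective day, the hours of an animal's day phase when it lives in constant darkness. The 6 libraries taken at circadian times (CT) 2, 6 and 10 were used, 3 of cKO and 3 of WT, of 12 libraries in the series. All genes of the deposited raw count table entered the comparison, with circadian time as a block, so that each cKO library was set against the WT library of its own time. The cKO mice were Cre-positive with a retina-specific deletion of Nr3c1, and the WT mice were Cre-negative. All were males aged 12 weeks, had no drug treatment, and had lived in cycles of 12 h light and 12 h dark for 2 weeks before eyes were taken on day 2 of constant darkness. Each library was a pool of equal amounts of RNA from 3 mice, 9 mice per genotype in all, which leaves variation among individual mice unseen. Neither the promoter that drives Cre nor the exons it removes are stated in the labels, and since every cKO mouse carried Cre and no WT mouse did, loss of the receptor and presence of Cre cannot be told apart.

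The glucocorticoid receptor is a nuclear receptor that waits in the cytoplasm with chaperones, binds cortisol or corticosterone, enters the nucleus and raises or lowers the transcription of its target genes. Circulating corticosterone follows a daily rhythm in mice, and known targets include the clock gene Per1, the cochaperone Fkbp5 and the anti-inflammatory gene Tsc22d3. In the eye the receptor is known for its part in glial and photoreceptor survival, and glucocorticoids change the outflow tissue and the lens.

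The 6 libraries held 10466253 to 10686868 counts each, and 15202 genes passed the filter on low counts. Some labels call the tissue ciliary body and give a cell line of its nonpigmented epithelium, while the protocols name whole eyes. Levels in CPM, which are counts scaled to the same library total, went with whole eyes: the rod transducin gene Gnat1 averaged 9102 CPM in cKO and 8443 CPM in WT eyes, the lens gene Cryaa averaged 20963 CPM in cKO and 17941 CPM in WT eyes, and genes of cornea, sclera, pigment epithelium and muscle were all measured. In such bulk samples, fewer cells of a type and less RNA per cell cannot be told apart. A further property of the series bears on what follows. For the 20 genes that passed the test as higher in cKO eyes by day, a tally was made of levels at night nearer to the daytime cKO mean than to the daytime WT mean. It was 12, 13 and 12 of the 20 genes in the cKO libraries of CT14, CT18 and CT22, against 3, 16 and 12 in the WT libraries of those times. Of the 30 lower genes it was 17, 21 and 18 in those cKO libraries, against 12, 16 and 15 in the WT libraries of CT14, CT18 and CT22. By this tally the WT libraries of CT18 and CT22 were not clearly apart from the night cKO libraries. With 1 pool per genotype and time, what belongs to the genotype and what belongs to the particular mice of a pool cannot be told apart for the genes concerned.

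Few genes differed between the genotypes. With the quasi-likelihood F test of edgeR and Benjamini-Hochberg adjustment at 0.05, 50 of 15202 genes (0.329%) differed, 20 higher in cKO eyes (0.132%) and 30 lower (0.197%). The median log2 difference of all genes was -0.00, with 7540 genes above and 7662 below 0. All 50 genes kept their direction in the 3 pairs, as did 26.8% of all genes tested. Among the higher genes 14 had groups that did not overlap, against 5.18% of all genes, and among the lower genes 27, against 5.17%. The lower genes were divided between 15 named genes and 15 gene models or pseudogenes, while 19 of the higher genes were named genes. An unadjusted p below 0.05 was found for 999 genes, or 6.57%. The count of 50 rested in part on which pairs entered: leaving out the CT2 pair gave 142 genes, of which 43 were shared with the 50, and leaving out the CT6 or the CT10 pair gave 39 and 56.

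Nr3c1 itself was lower. At CT2, CT6 and CT10 it had 403, 517 and 449 counts in cKO eyes, against 749, 706 and 591 counts in WT eyes, or means of 43.5 ± 5.3 CPM in cKO and 64.2 ± 8.3 CPM in WT eyes (SD, n = 3 each). Every cKO library lay below every WT library, and the log2 difference was -0.56 ± 0.09 (SE, edgeR adjusted p = 0.0029). The receptor is made in most cell types of the eye, and a count over the whole gene includes reads from tissue outside the retina and from any exons that the deletion leaves. The other genes of corticosteroid reception were measured beside it: of 11 tested, Nr3c1 was the member past the test. Nr3c2, the mineralocorticoid receptor, averaged 26.3 CPM in cKO and 24.8 CPM in WT eyes. Hsd11b1, the enzyme that regenerates active glucocorticoid, averaged 2.00 CPM in cKO and 3.04 CPM in WT eyes (log2 difference -0.63 ± 0.29, edgeR adjusted p = 0.75).

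None of the 30 listed glucocorticoid target genes passed the test of edgeR, and 0 passed with DESeq2 or limma. By estimate 21 were lower and 9 higher in cKO eyes, with a median log2 difference of -0.08 against -0.00 for all genes. At an unadjusted p below 0.05, 6 of the 30 were lower, against 6.57% of all genes in either direction. Like all lists used here, this one was written with earlier results of these data known. Such shares therefore describe a list and are no test of it. Fam107a, a stress-responsive actin regulator, had 31.4, 31.6 and 31.2 CPM in cKO eyes at CT2, CT6 and CT10, against 34.6, 41.2 and 37.8 CPM in WT eyes (log2 difference -0.27 ± 0.08, edgeR adjusted p = 0.284). The repressor Bcl6 had 21.9, 19.6 and 23.2 CPM in cKO eyes, against 26.1, 27.7 and 25.3 CPM in WT eyes (log2 difference -0.29, adjusted p = 0.412). In 4 of the 30 every cKO library lay below every WT library, against 5.17% of all genes, and in 0 above. These 2 genes and the arrestin-like Arrdc2 were among the 4. The classical targets lay closer together: Fkbp5 averaged 29.1 CPM in cKO and 28.7 CPM in WT eyes, Tsc22d3 averaged 43.9 CPM in cKO and 46.0 CPM in WT eyes, Per1 averaged 61.6 CPM in cKO and 65.0 CPM in WT eyes, and the kinase gene Sgk1 averaged 379 CPM in cKO and 362 CPM in WT eyes. The summed level of the 30 genes was 3607 to 3860 CPM in cKO libraries and 3929 to 4094 CPM in WT libraries. Its largest member was Glul, the glutamine synthetase of Müller glia, which averaged 2546 CPM in cKO and 2735 CPM in WT eyes.

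Among the named genes that were lower, Gpx3 had the smallest adjusted p. This gene, which encodes the extracellular glutathione peroxidase, had 202, 237 and 164 CPM in cKO eyes at CT2, CT6 and CT10, against 361, 329 and 302 CPM in WT eyes. The groups were far apart, and the log2 difference was -0.73 ± 0.07 (edgeR adjusted p = 1.57e-05). Of the 23 antioxidant enzymes tested it was the member that passed, the list's median being -0.05. Their summed level was 2252 to 2295 CPM in cKO libraries and 2412 to 2520 CPM in WT libraries. That sum includes Gpx3 itself, which averaged 201 CPM in cKO and 331 CPM in WT eyes, and no sum without it was made. Hdc, which makes histamine from histidine, had 93, 151 and 177 counts in cKO eyes, against 195, 219 and 225 counts in WT eyes (log2 difference -0.60 ± 0.12, edgeR adjusted p = 0.0478). Its groups did not overlap, but it no longer passed without the CT2 pair (adjusted p = 0.115) or without the CT6 pair (adjusted p = 0.25).

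Gpx3 and Hdc also hold the core word of the receptor's motif before the start site, and their sequences are shown for that reason. In the RefSeq promoters of GRCm38.p6, 26 of the 50 genes had an entry. The core word TGTTCT was looked for on both strands in the 250 bases before the start, and was held by 3 of 9 lower genes, 1 of 17 higher genes and 13.2% of all tested genes with an entry. The full palindrome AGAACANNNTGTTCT was found in 3 of 32851 promoters and in none of the 26 genes. The stretches below run 5′ to 3′ on the strand of the gene, Gpx3 from chr11:54902661-54902786 (plus strand) and Hdc from chr2:126618750-126618875 (minus strand), with the core word in capitals. It begins 133 bases before the start in Gpx3 and 137 bases before it in Hdc.
Gpx3: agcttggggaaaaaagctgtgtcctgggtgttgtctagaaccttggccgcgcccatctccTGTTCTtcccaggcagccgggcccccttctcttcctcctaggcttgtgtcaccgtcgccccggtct
Hdc: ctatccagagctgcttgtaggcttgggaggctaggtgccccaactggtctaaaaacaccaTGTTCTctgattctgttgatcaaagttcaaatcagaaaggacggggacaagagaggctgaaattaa
The third lower gene with the word was Psmb5, a catalytic subunit of the proteasome, and the higher gene was Schip1. A match of letters is a description and not a binding site.

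Etnppl had the largest decrease among the named genes with counts in every library. This enzyme breaks down phosphoethanolamine and is listed here with Müller glia. It had 37, 60 and 42 counts in cKO eyes at CT2, CT6 and CT10, against 128, 123 and 131 counts in WT eyes, or means of 4.42 CPM in cKO and 12.0 CPM in WT eyes. The log2 difference was -1.44 ± 0.17 (edgeR adjusted p = 0.000145). Of the 17 genes of that list it was the member past the test, and the list's median was 0.00. Folh1, which cleaves glutamate from N-acetylaspartylglutamate, had 8.84, 8.94 and 11.1 CPM in cKO eyes, against 20.2, 15.8 and 11.9 CPM in WT eyes, without overlap, but missed the threshold (log2 difference -0.71 ± 0.16, edgeR adjusted p = 0.0743). The list was written with earlier results of these data known, so the shares that follow describe it and are no test of it. Of the 17, 5 were lower and 1 higher without overlap, against 5.17% and 5.18% of all genes. At an unadjusted p below 0.05, 4 were lower and 1 higher, against 6.57% of all genes in either direction. Among the lower ones was the thyroid hormone binding protein gene Crym (log2 difference -0.29, adjusted p = 0.367).

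The stroma and sclera gene Dcn and the outflow gene Angptl7 were lower, as were Apod and Mmp3. Decorin, the product of Dcn, is a collagen-binding proteoglycan. Dcn had 340, 335 and 231 CPM in cKO eyes at CT2, CT6 and CT10, against 347, 571 and 378 CPM in WT eyes (log2 difference -0.50 ± 0.10, edgeR adjusted p = 0.0313). Apod, a lipid-carrying apolipoprotein, had 65.7, 78.3 and 52.3 CPM in cKO eyes, against 78.2, 120 and 82.8 CPM in WT eyes (log2 difference -0.51 ± 0.07, adjusted p = 0.00162). The WT library of CT6 was the highest for both. The matrix protease gene Mmp3 was 19.5, 21.2 and 10.3 CPM in cKO eyes, against 24.7, 32.1 and 23.7 CPM in WT eyes (log2 difference -0.67 ± 0.12, adjusted p = 0.0148). Angptl7, a secreted protein of cornea and trabecular meshwork, had 114, 132 and 149 counts in cKO eyes, against 124, 262 and 333 counts in WT eyes (log2 difference -0.80 ± 0.14, adjusted p = 0.012), so its difference lay at CT6 and CT10.

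The stroma and sclera list varied between the pairs. Of 14 stroma and sclera genes 12 were lower by estimate and 1, Dcn, passed, with a median log2 difference of 0.09 in the CT2 pair, -0.33 in the CT6 pair and -0.10 in the CT10 pair. The summed level of the list was 944 to 1097 CPM in cKO libraries and 1020 to 1484 CPM in WT libraries. How far the amount of this tissue in the pools went with the lower levels of Dcn, Apod and Mmp3 was not tested. Without the CT6 pair none of the 4 passed: the adjusted p was 0.475 for Dcn, 0.0828 for Apod, 0.175 for Mmp3 and 0.276 for Angptl7. Without the CT10 pair it was 0.22 for Dcn, 0.103 for Mmp3 and 0.236 for Angptl7.

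**Figure D1:**
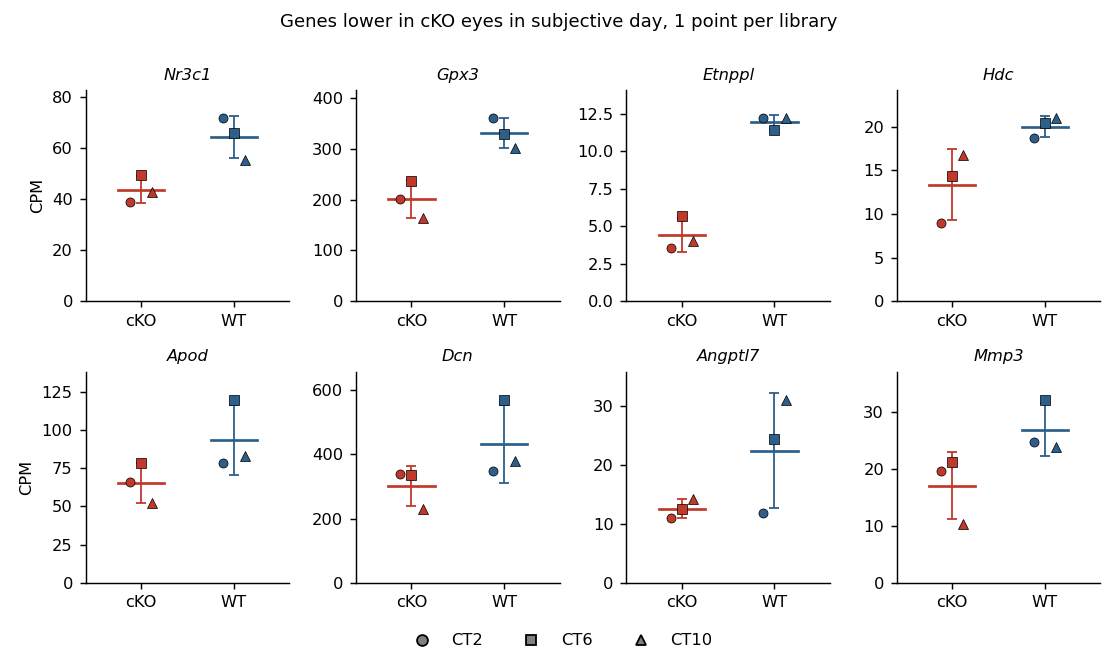
Levels in CPM (vertical axes from 0) of 8 genes that were lower in cKO eyes in subjective day. Each point is 1 library, its shape giving the circadian time, and the lines and bars are the mean ± SD of 3 libraries of cKO (left) and WT (right). Nr3c1, Gpx3, Etnppl and Hdc have groups that do not overlap, while those of Apod and Angptl7 overlap.

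Among the remaining named genes that were lower were enzymes of several pathways. Pnp, which degrades purine nucleosides, had 41.8, 38.8 and 53.1 CPM in cKO eyes at CT2, CT6 and CT10, against 78.4, 78.6 and 60.7 CPM in WT eyes (log2 difference -0.70 ± 0.11, edgeR adjusted p = 0.00328). Its close relative Pnp2 averaged 4.51 CPM in cKO and 4.49 CPM in WT eyes. Psmb5 averaged 44.4 CPM in cKO and 65.7 CPM in WT eyes (log2 difference -0.56), and Ppp1r3e, which targets a phosphatase to glycogen, averaged 3.71 CPM in cKO and 7.65 CPM in WT eyes (log2 difference -1.05). Pnp, Psmb5 and Ppp1r3e all lie on chromosome 14, with 28 tested genes between Pnp and Psmb5, 6 between Psmb5 and Ppp1r3e, and none of those between them past the test. Without the CT6 pair their adjusted p was 0.175, 0.172 and 0.299, with a log2 difference of -0.37 for Psmb5. Car3, a carbonic anhydrase of muscle and fat, averaged 66.6 CPM in cKO and 81.7 CPM in WT eyes (log2 difference -0.30, adjusted p = 0.0494) and lost the call when any 1 of the pairs was left out (adjusted p = 0.0956, 0.299 and 0.0587).

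Pcdha3 and Pcdhga8, cell adhesion protocadherins of neurons, were lower as well. Pcdha3 averaged 2.42 CPM in cKO and 5.27 CPM in WT eyes (log2 difference -1.12, edgeR adjusted p = 0.0313), and Pcdhga8 averaged 46.6 CPM in cKO and 63.7 CPM in WT eyes (log2 difference -0.45, adjusted p = 0.0421). Each is a first exon spliced to exons shared by its whole cluster, so counts per member depend on how shared reads were assigned. The pair sits on chromosome 18, as does Nr3c1, with 22 tested genes between Pcdhga8 and Nr3c1. Of the 64 tested genes between Pcdha3 and Nr3c1, 25 were lower by estimate, with a median log2 difference of 0.05. Without the CT6 pair the adjusted p was 0.342 for Pcdha3 and 0.413 for Pcdhga8, the log2 difference of Pcdhga8 being -0.27.

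The lens list leaned one way, with few members past the test. All 25 lens genes tested were higher in cKO eyes by estimate, with a median log2 difference of 0.18. An unadjusted p below 0.05 was found for 17, against 6.57% of all genes in either direction. The 3 that passed the test were Cryge, Crygf and Cryga, gamma crystallins that fill the fibre cells. Cryge had 583, 303 and 244 CPM in cKO eyes at CT2, CT6 and CT10, against 365, 191 and 103 CPM in WT eyes (log2 difference 0.85 ± 0.08, edgeR adjusted p = 2.15e-05). Crygf had 377, 212 and 179 CPM in cKO eyes, against 280, 136 and 92.8 CPM in WT eyes (log2 difference 0.66 ± 0.08, adjusted p = 0.000119). Both genes were highest at CT2 in each genotype, so the groups overlap over the 3 times although each pair shows the difference. Cryga had 130, 67.9 and 52.0 CPM in cKO eyes, against 55.7, 56.4 and 24.8 CPM in WT eyes (log2 difference 0.85 ± 0.12, adjusted p = 0.00162).

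The other lens genes had smaller differences. The alpha crystallin Cryaa averaged 20963 CPM in cKO and 17941 CPM in WT eyes (log2 difference 0.22), the channel Mip averaged 1370 CPM in cKO and 1184 CPM in WT eyes (0.21), and Crygd averaged 3019 CPM in cKO and 2428 CPM in WT eyes (0.30, edgeR adjusted p = 0.249). The summed level of the 25 genes was 84909, 69565 and 74436 CPM in cKO eyes at CT2, CT6 and CT10, against 72085, 67611 and 61584 CPM in WT eyes. The list's median was 0.23 in the CT2 pair, 0.04 in the CT6 pair and 0.25 in the CT10 pair. The part of lens tissue per pool in the 3 calls was not tested. Without the time block the 3 genes no longer passed (adjusted p = 0.956, 0.995 and 0.742), nor did they in the fit of all 12 libraries. At night the log2 difference was 0.49 ± 0.65 for Cryge, 0.46 ± 0.54 for Crygf and -0.70 ± 0.49 for Cryga (SE), so the 3 did not share a direction there. Grifin, a lens galectin named after its values were seen, averaged 160 CPM in cKO and 129 CPM in WT eyes (log2 difference 0.31, adjusted p = 0.0285), but lost the call when any 1 of the pairs was left out (adjusted p = 0.122, 0.0628 and 0.103).

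The 3 gamma crystallins belong to a cluster on chromosome 1, and the bases before their starts are shown because all 3 were higher by day. Within the stretch of 9 tested genes that runs from Cryge to Crygf, 7 were higher by estimate and the median log2 difference was 0.24, against 0.01 for the 10 tested genes on each side. The stretch was picked out because 3 of its genes passed, so these counts describe it and are not a test of it. Its genes outside the lens list, D630023F18Rik, Idh1 and Pikfyve, had log2 differences of -0.71, -0.06 and 0.04 and did not pass. Crygd, Crygc and Crygb, inside the same stretch, had log2 differences of 0.30, 0.24 and 0.19 and did not pass. The 100 bases before each start are given 5′ to 3′ on the strand of the gene, from RefSeq on GRCm38.p6, as chr1:65051164-65051263 (minus strand) for Cryge, chr1:65926422-65926521 (plus strand) for Crygf and chr1:65103364-65103463 (minus strand) for Cryga. Capitals mark the longest word the 3 have in common.
Cryge: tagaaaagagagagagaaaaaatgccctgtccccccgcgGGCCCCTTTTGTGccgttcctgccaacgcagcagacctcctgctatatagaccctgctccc
Crygf: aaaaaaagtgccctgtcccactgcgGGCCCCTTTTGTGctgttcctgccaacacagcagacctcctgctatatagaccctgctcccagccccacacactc
Cryga: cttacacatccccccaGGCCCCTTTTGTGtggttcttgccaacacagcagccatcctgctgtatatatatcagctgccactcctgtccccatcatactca
That word of 13 bases, GGCCCCTTTTGTG, was held by 4 of 32851 RefSeq promoters, those of Cryga, Crygc, Cryge and Crygf. It was taken from 3 of these related promoters, so its rarity is no test of a part in the difference. Crygc carries it and did not pass the test. Aligned end to end, Cryge and Crygf were 70.2% identical, Crygf and Cryga 67.9%, and Cryge and Cryga 50.4%. How reads shared among these related genes were counted is not known, and the identity of their transcripts was not measured.

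Photoreceptor genes had small differences. Of 20 rod genes 18 were higher by estimate with a median log2 difference of 0.06, and 1 passed. Sag, the arrestin that helps to end the light response of rods, had 4069, 4284 and 5118 CPM in cKO eyes at CT2, CT6 and CT10, against 3528, 2918 and 4021 CPM in WT eyes (log2 difference 0.37 ± 0.07, edgeR adjusted p = 0.030). The other rod genes lay within 0.12 of 0 on the log2 scale, among them the phosphodiesterase subunit Pde6g at 1528 CPM in cKO and 1414 CPM in WT eyes. Without the CT6 pair or the CT10 pair Sag did not pass (adjusted p = 0.293 and 0.273). Of 12 cone genes 10 were higher by estimate and 0 passed, with 3 at an unadjusted p below 0.05. The DESeq2 result was looked up for 4 of the 12, and 0 of those passed. The short-wave opsin Opn1sw had 384, 352 and 361 CPM in cKO eyes, against 367, 285 and 291 CPM in WT eyes (log2 difference 0.23 ± 0.06, adjusted p = 0.238).

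Further named genes were higher across several functions. Hjurp, the chaperone that loads the centromere histone, had 60.5, 59.0 and 56.5 CPM in cKO eyes at CT2, CT6 and CT10, against 43.1, 37.7 and 39.1 CPM in WT eyes (log2 difference 0.55 ± 0.07, edgeR adjusted p = 0.00024). It lies on chromosome 1 with 6 tested genes between it and Sag, whose median log2 difference was 0.03. Adh6a, an alcohol dehydrogenase, averaged 16.5 CPM in cKO and 9.77 CPM in WT eyes (log2 difference 0.76, adjusted p = 0.0256), and 0.395 was its adjusted p without the CT6 pair. Myo7a, the motor protein of pigment epithelium and photoreceptor cilia, averaged 44.1 CPM in cKO and 33.5 CPM in WT eyes (log2 difference 0.40, adjusted p = 0.030). It did not pass without the CT2 pair (adjusted p = 0.131) or the CT10 pair (0.095).

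Lyz2, the lysozyme of macrophages and neutrophils, had 90.6, 122 and 126 CPM in cKO eyes at CT2, CT6 and CT10, against 76.5, 89.5 and 93.5 CPM in WT eyes (log2 difference 0.38 ± 0.06, edgeR adjusted p = 0.0057). It was 1 of 17 immune cell genes tested, of which 11 were higher by estimate with a median of 0.01. Without the CT6 or the CT10 pair its adjusted p was 0.0836 and 0.095. Plac8, listed with the cornea and conjunctiva, averaged 49.4 CPM in cKO and 39.1 CPM in WT eyes (log2 difference 0.33, adjusted p = 0.0448), and also lost the call without any 1 of the pairs (0.166, 0.141 and 0.139). Zbed6, a transcriptional repressor encoded in an intron of Zc3h11a, averaged 5.17 CPM in cKO and 2.50 CPM in WT eyes (log2 difference 1.05, adjusted p = 0.0422), while Zc3h11a averaged 155 CPM in cKO and 149.6 CPM in WT eyes. Reads of the host transcript and of Zbed6 are not told apart without knowing how they were counted, and Zbed6 had an adjusted p of 0.369 without the CT6 pair and 0.114 without the CT10 pair.

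**Figure D2:**
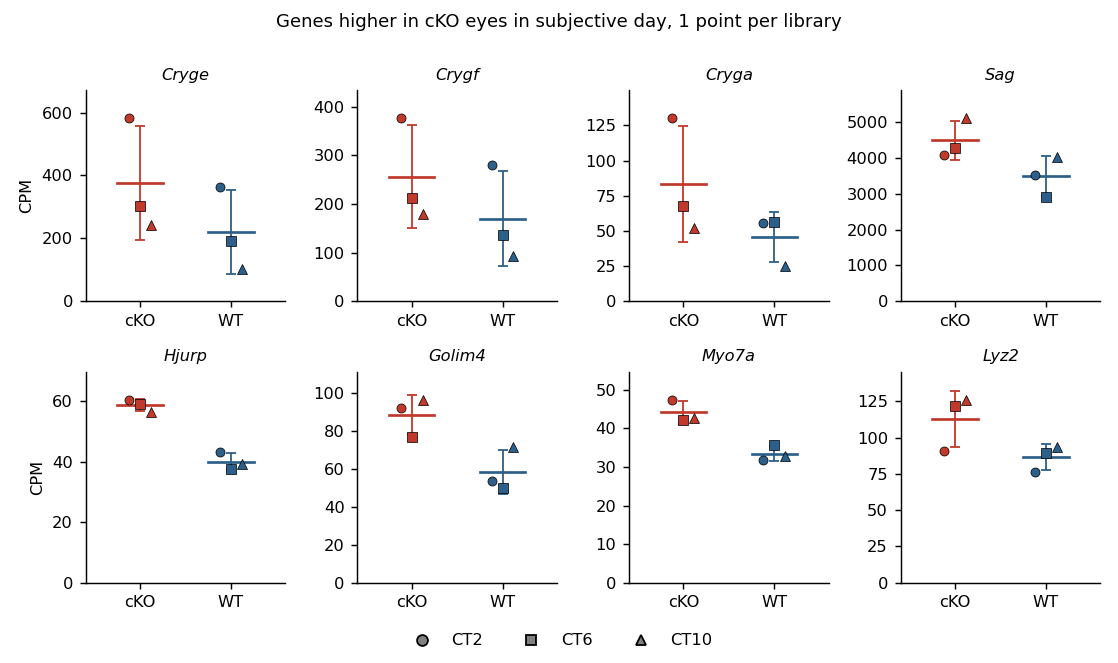
Levels in CPM (vertical axes from 0) of 8 genes that were higher in cKO eyes in subjective day, drawn like the lower genes: 1 point per library, shape for circadian time, line and bar for the mean ± SD of 3 libraries, cKO left and WT right. Cryge and Crygf have their highest point at CT2 in both genotypes, and Hjurp has groups that do not overlap.

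Of all chromosomes, chromosome 3 held the most genes past the test, 12 of 746 tested (1.61%, against 0.329% of all genes). A run of 16 neighbouring tested genes from Schip1 to Golim4 held 7 of these, all higher in cKO eyes. Every one of the 16 was higher by estimate, and the median log2 difference was 0.40. In 13 the groups did not overlap, against 5.18% of all genes in that direction. Among the 10 tested genes on each side none passed, and their medians were -0.09 on the Schip1 side and 0.02 on the Golim4 side. The run was picked out because its genes passed the test, so these counts describe it and are not a test of it. At night the median of the 16 was 0.30. Night levels of the 7 genes were placed on a log2 scale from the daytime WT mean (0) to the daytime cKO mean (1). The WT library of CT14 lay at -0.48 to 0.10, that of CT18 at 0.53 to 0.87 and that of CT22 at 0.50 to 0.81. The night cKO libraries lay at 0.60 to 1.61. How far the run goes with the genotype or with particular pools was not tested.

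The genes of the run have unlike functions. Golim4, a Golgi protein, had 92.1, 76.8 and 96.3 CPM in cKO eyes at CT2, CT6 and CT10, against 53.5, 49.6 and 71.2 CPM in WT eyes (log2 difference 0.61 ± 0.07, edgeR adjusted p = 0.000105). Schip1, a cytoskeletal partner of schwannomin, had 43.9, 34.6 and 36.1 CPM in cKO eyes, against 23.5, 23.7 and 26.6 CPM in WT eyes (log2 difference 0.63 ± 0.09, adjusted p = 0.00162). Ift80, which carries cargo along cilia, had 80.9, 72.5 and 75.6 CPM in cKO eyes, against 62.4, 51.6 and 58.2 CPM in WT eyes (log2 difference 0.41 ± 0.06, adjusted p = 0.00242). In all 3 every cKO library lay above every WT library.

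The remaining members past the test in the run were the nuclear import receptor Kpna4 (log2 difference 0.42), the phosphatase Ppm1l (0.43), the glycosyltransferase B3galnt1 (0.47) and the neuronal protease inhibitor Serpini1 (0.34). Kpna4 averaged 135 CPM in cKO and 102 CPM in WT eyes. Without the CT6 pair the adjusted p of Ppm1l was 0.103 and that of B3galnt1 was 0.0836. Serpini1 had an adjusted p of 0.0517 without the CT2 pair and 0.169 without the CT10 pair.

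**Figure D3:**
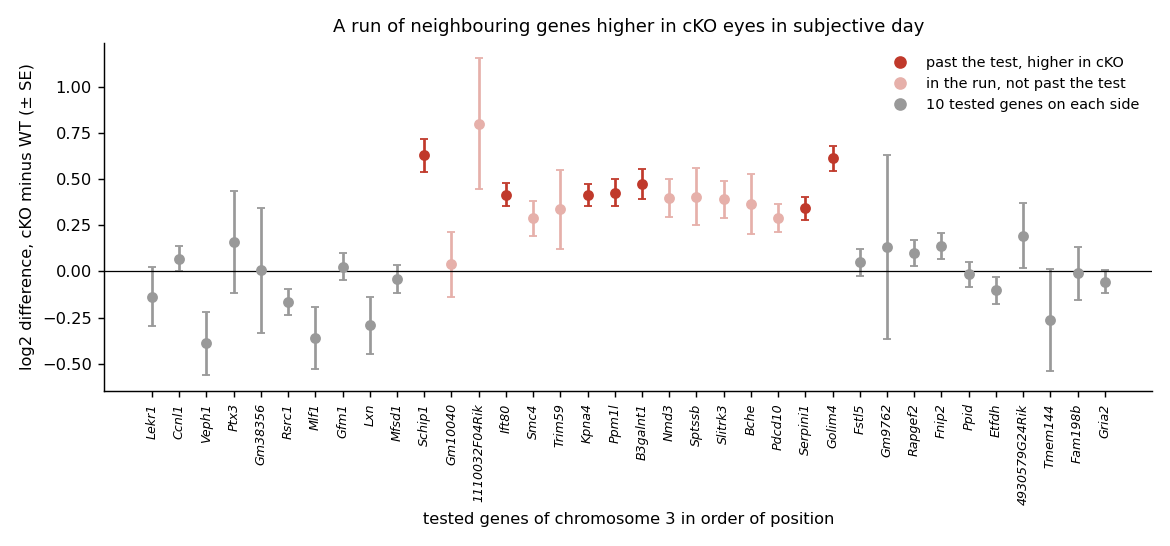
Log2 difference in level, cKO minus WT, with its SE (vertical axis), for the 16 tested genes of the chromosome 3 run and 10 tested genes on each side, in order of position (horizontal axis, not to scale in bases). The 7 dark points passed the test, all 16 points of the run lie above 0, and the flanking genes lie on both sides of 0.

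By day, the genes with the largest differences were counted almost wholly in 1 genotype. Gbp2b, an interferon-inducible guanylate-binding protein on chromosome 3, had 0, 0 and 0 counts in cKO eyes at CT2, CT6 and CT10, against 29, 12 and 29 counts in WT eyes. It was at least 23.0-fold lower in cKO eyes when 3 counts over the group are taken as the limit of what could be missed. Its relative Gbp2 averaged 12.6 CPM in cKO and 12.0 CPM in WT eyes. The gene model RP23-325D10.3 had 50, 64 and 21 counts in cKO eyes, against 0, 0 and 0 counts in WT eyes, at least 45.6-fold higher by the same limit. Gm15487 had 0, 1 and 0 counts in cKO eyes, against 275, 321 and 208 counts in WT eyes, a ratio of WT over cKO of 793 with a 95% exact interval of 142 to 3.13e+04 that covers counting error only. At night Gbp2b had 0, 0 and 0 counts in cKO eyes at CT14, CT18 and CT22, against 30, 0 and 0 counts in WT eyes, and Gm15487 had 5, 0 and 0 counts in cKO eyes, against 390, 0 and 0 counts in WT eyes. RP23-325D10.3 had 0, 70 and 0 counts in cKO eyes at night, against 9, 0 and 46 counts in WT eyes, so it was counted in both genotypes there. For Gbp2b and Gm15487 the WT libraries of CT18 and CT22 were at 0 while the other 4 WT libraries were not. The WT pools thus differed among themselves as much as the genotypes did by day, and whether the pools of CT18 and CT22 differ from the others in more than their time was not tested. The tie of these genes to the genotype is uncertain to that extent, as it is for Rps13-ps1 and for other gene models that were lower. At CT14, CT18 and CT22 the WT libraries had 157, 0 and 0 counts of Rpl34-ps1 and 82, 0 and 0 counts of Gm9825. They had 70, 3 and 3 counts of Rps2-ps6 and 423, 88 and 81 counts of Rps2-ps10.

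Of the 16 gene models or pseudogenes past the test, 11 were annotated as pseudogenes, all lower in cKO eyes. They were 11 of 279 pseudogenes tested, while 30 of all 15202 genes tested (0.197%) passed as lower. A pseudogene of the processed kind keeps most of the sequence of its parent gene, so that a read can align to either. Rps13-ps1 on chromosome 8 matches Rps13 on chromosome 7, a protein of the small ribosomal subunit, in 99.6% of 522 aligned bases. In the 453 coding bases of Rps13 the transcripts differ at 2 places, both within the stretch shown here to make plain how alike they are, coding bases 389 to 433 with the differing base in capitals (GENCODE M21 transcripts).
Rps13: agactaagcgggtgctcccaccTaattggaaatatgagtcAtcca
Rps13-ps1: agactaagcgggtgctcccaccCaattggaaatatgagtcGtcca
The longest identical run between the transcripts was 436 bases.

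Rps13 was higher in cKO eyes and its copy lower. Rps13 had 1942, 1893 and 1898 counts in cKO eyes at CT2, CT6 and CT10, against 952, 1075 and 1009 counts in WT eyes (log2 difference 0.94 ± 0.06, edgeR adjusted p = 4.54e-08). Rps13-ps1 had 136, 0 and 0 counts in cKO eyes, against 954, 1097 and 1142 counts in WT eyes. Summed, the pair had 2078, 1893 and 1898 counts in cKO eyes, against 1906, 2172 and 2151 counts in WT eyes, a log2 difference of -0.065 ± 0.064 (adjusted p = 0.931). The sum missed the threshold, and its sign was opposite to that of Rps13 alone. At night the WT library of CT14 was split like the daytime WT libraries and those of CT18 and CT22 like the cKO libraries.

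The same sum was made for 10 models matching a named gene in at least 95% of bases over at least 90% of their length. These were Rps13-ps1, Rpl34-ps1, Rpl36a-ps2, Rps2-ps10, Rps2-ps6, Gm9825, Gm10925, Gm10146, Gm20388 and Gm9800, and all but Rpl34-ps1, Rps2-ps10, Gm9825 and Gm10925 are named here after their values were seen. Rps2-ps10 had 107, 106 and 99 counts in cKO eyes, against 497, 524 and 279 counts in WT eyes, and summed with Rps2-ps6 and the parent Rps2 the log2 difference was -0.02. Gm10146, identical to Lsm7 over its whole length, had 16, 0 and 43 counts in cKO eyes, against 126, 76 and 86 counts in WT eyes, and the sum with Lsm7 was 220, 200 and 201 counts in cKO eyes, against 222, 220 and 223 counts in WT eyes. Gm10925, identical to the mitochondrial gene mt-Atp6, had 81, 36 and 110 counts in cKO eyes, against 263, 237 and 334 counts in WT eyes. None of the sums passed the test, and the smallest adjusted p was 0.787. In the WT libraries the copy made up 51.3% of the sum for Rps13-ps1 and 43.3% for Gm10146, but 0.74% for Gm10925, 0.252% for Gm9800, 0.592% for Rps2-ps6 and 4.97% for Rps2-ps10. Where the copy is so small a share, the sum says little about it. With sums in place of the copies 35 genes passed, 17 higher and 18 lower.

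**Figure D4:**
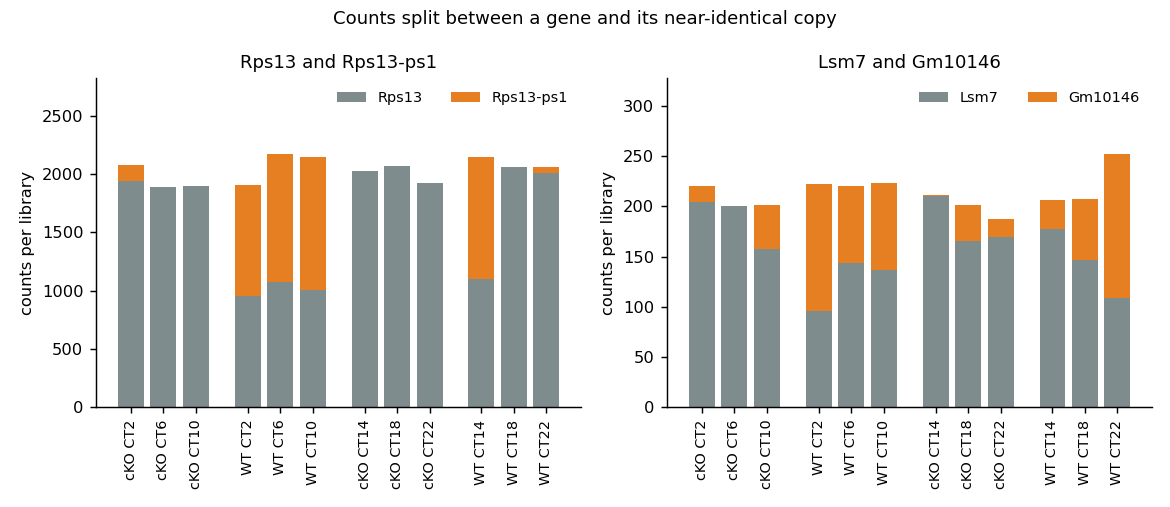
Counts per library (vertical axis) of Rps13 with its copy Rps13-ps1 (left) and Lsm7 with its copy Gm10146 (right), stacked, for day and then night libraries of each genotype. The stacked height is similar in all libraries, from 1893 to 2172 counts by day for Rps13, while the share of the copy is large in the WT libraries of CT2 to CT14 for Rps13-ps1.

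Ribosomal protein genes other than Rps13 did not pass the test. Of 82 tested, 64 were lower and 18 higher by estimate, with a median log2 difference of -0.06 that was 0.02 in the CT2 pair and -0.10 in the CT6 and CT10 pairs. Of 20 core clock genes 14 were higher and 6 lower by estimate, and 0 passed with edgeR, DESeq2 or limma, with 1 in each direction at an unadjusted p below 0.05. Arntl, the activator also called Bmal1, averaged 76.4 CPM in cKO and 75.2 CPM in WT eyes. Per2 averaged 26.6 CPM in cKO and 22.7 CPM in WT eyes (log2 difference 0.24 ± 0.10, edgeR adjusted p = 0.68), and the retinal receptor gene Rorb averaged 226 CPM in cKO and 261 CPM in WT eyes (-0.20 ± 0.06, adjusted p = 0.444).

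All 14 ganglion cell genes were lower in cKO eyes by estimate with a median log2 difference of -0.09, and the median was 0.01 at night. Of these 0 passed with edgeR, and 3 had an unadjusted p below 0.05. The DESeq2 result was looked up for 4 of the 14, and 0 of those passed. Sncg, a synuclein of ganglion cell axons, averaged 39.4 CPM in cKO and 45.5 CPM in WT eyes (log2 difference -0.21, edgeR adjusted p = 0.451), and the neurofilament gene Nefm averaged 97.0 CPM in cKO and 111 CPM in WT eyes (-0.19, adjusted p = 0.368). Over all 28 gene lists the median log2 difference lay between -0.11 and 0.22, and 10 lists held a gene past the test while 18 held none.

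**Figure D5:**
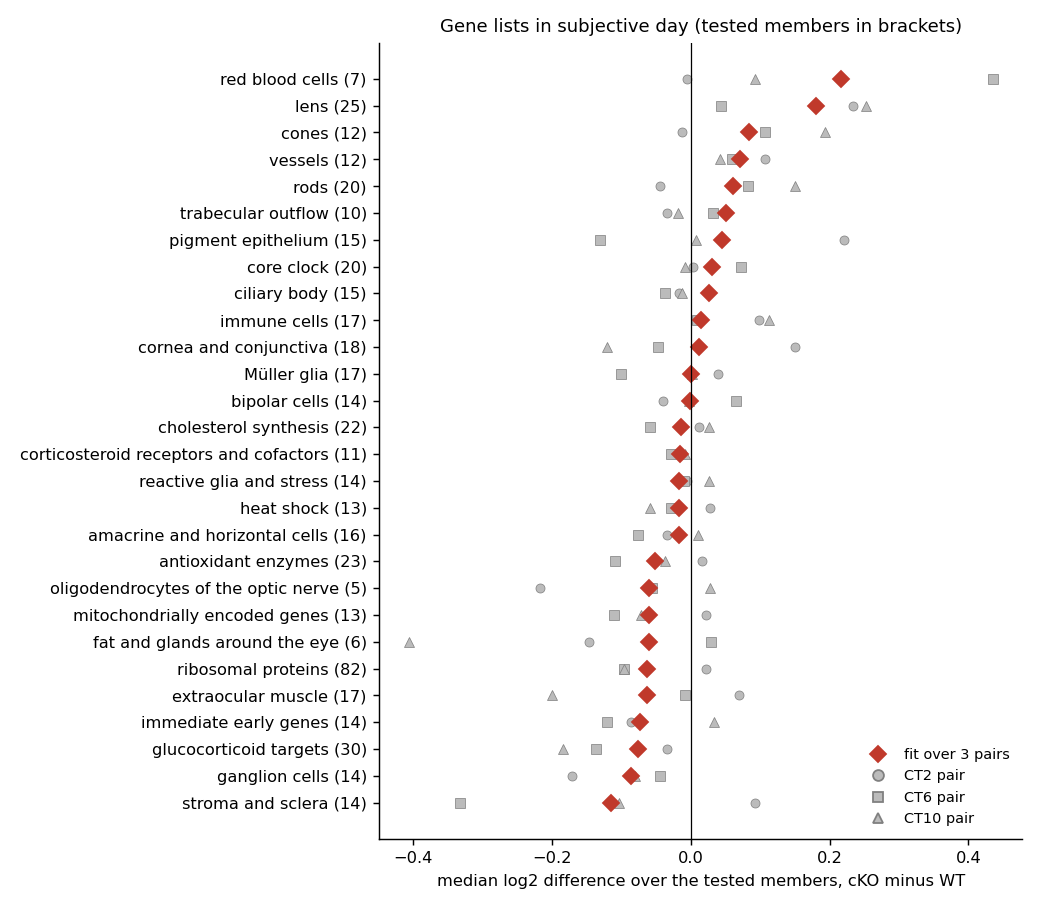
Median log2 difference, cKO minus WT, over the tested members of each of 28 gene lists (diamonds, horizontal axis), with the median in each pair of libraries by circadian time (grey shapes). The lens list lies at 0.18 with all pairs above 0, while stroma and sclera lie at -0.11 with pairs from -0.33 to 0.09.

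Few of the daytime differences could be set apart from those of the night. At night 17 of the 20 higher and 22 of the 30 lower genes had the same sign. The share of all genes tested that kept their sign was not counted. Of the lower ones 2, Gm15487 and Rpl34-ps1, passed the test at night, where the WT library of CT14 was the only WT library with counts of them. Etnppl had 53, 40 and 89 counts in cKO eyes at CT14, CT18 and CT22, against 199, 106 and 147 counts in WT eyes. Gpx3 had 2180, 1880 and 3463 counts in cKO eyes at night, against 3906, 4137 and 3779 counts in WT eyes, and Nr3c1 had 526, 472 and 524 counts in cKO eyes, against 791, 686 and 661 counts in WT eyes. In none of these 3 did the night groups overlap. Other genes were turned round at night by estimate: Pnp had 952, 703 and 666 counts in cKO eyes, against 578, 524 and 762 counts in WT eyes (night log2 difference 0.32), Psmb5 and Ppp1r3e each had a night log2 difference of 0.19, and Cryga had 367, 287 and 330 counts in cKO eyes, against 1008, 947 and 32 counts in WT eyes (-0.70). The difference between day and night did not pass for these 4 genes (edgeR adjusted p = 0.533 for Pnp and 0.999 for the others). The test of the difference between day and night across all 12 libraries was passed by 3 of 15498 genes (0.0194%), with 475 (3.06%) at an unadjusted p below 0.05. The adjusted p of that test was 0.999 for Nr3c1, Gpx3 and Etnppl.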

How the data were processed

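The authors deposited raw counts per gene, called raw data in the table itself. For the aligner, the counter, the genome build, the annotation and the strand setting, the labels give nothing (not given in the sources used here). Of 32544 entries, 27 with names that a spreadsheet had turned into dates (0.157% of the counts at the median) were left out. In R 4.3.3, edgeR 4.0.16 was run with filterByExpr (minimum count 10, minimum total 15), TMM scaling and the quasi-likelihood F test on a model of circadian time plus genotype (6 libraries, 2 residual degrees of freedom). Genotype is coded cKO minus WT, the SE is the one implied by the F statistic, and p-values were adjusted over all 15202 genes. Day minus night was tested on 12 libraries. DESeq2 1.42.0 and limma 3.58.1 served as alternatives, with other settings described in the closing section. The code was tested on simulated data.

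The named genes were Nr3c1, the 14 established symbols that changed most up and the 14 that changed most down, up to 5 gene models each way, and leading members of each of 28 lists. Members and lists were chosen with earlier results of these data known. Symbols were placed in gene order with GENCODE M21 (GRCm38), which covered 97.4% of tested genes. Copies were matched with blastn 2.17.0 and summed, an alternative added after the data were seen. Libraries of 1 genotype at different times served as replicates. With time as a block, p-values and SEs rest on how the differences of the 3 pairs of pools vary. That spread was shared across genes, with 15.0 prior beside 2 residual degrees of freedom. The SE of a gene therefore does not reflect its own pairs alone. For Dcn the pairs had log2 differences of -0.03, -0.77 and -0.71, and the SE was 0.10. With 10466253 to 10686868 counts per library, the coefficient of variation that edgeR estimated between libraries was 5.13%.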

Additional observations from a re-analysis of the deposited data

Results flagged for a closer look

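For 3 genes the difference between cKO and WT eyes was itself different by day and by night, by the genotype and phase term of edgeR's quasi-likelihood test over 12 libraries. Hjurp had 629, 620 and 595 counts in cKO eyes by day, against 451, 405 and 419 counts in WT eyes, and at night 446, 466 and 502 counts in cKO eyes, against 416, 560 and 594 counts in WT eyes. The day minus night difference was 0.69 ± 0.10 on the log2 scale (adjusted p = 0.0392). Gm10925, the copy of mt-Atp6, had 81, 36 and 110 counts in cKO eyes by day, against 263, 237 and 334 counts in WT eyes, and at night 190, 168 and 155 counts in cKO eyes, against 105, 60 and 11 counts in WT eyes, which gave -3.50 ± 0.42 (adjusted p = 0.00683). Rpl14-ps1 had 0, 0 and 17 counts in cKO eyes by day, against 0, 0 and 0 counts in WT eyes, and at night 0, 0 and 0 counts in cKO eyes, against 97, 96 and 0 counts in WT eyes. Its fitted day minus night difference of 14.56 (adjusted p = 0.00683) depends on libraries at 0 and is no measure of size. None of the 3 passed when the pair of CT6, or the pair of CT10, was left out. Without the pair of CT2, Gm10925 and Rpl14-ps1 passed and Hjurp did not. With limma-trend Gm10925 alone passed. The night pairs were not left out in turn.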

How the results depend on the processing

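The count of 50 genes (20 higher, 30 lower in cKO eyes) was 48 with DESeq2 size factors, 43 with no filter on low counts and 50 with limma-trend. It was 25 with the DESeq2 test (11 higher, 14 lower) and 16 with all 12 libraries in the fit (3 higher, 13 lower), where 18.8% of the calls were higher, against 40% in the main comparison. Leaving out 1 pair of libraries gave 39 to 142 genes, 16 to 42 higher and 23 to 100 lower, the highest without the CT2 pair. Summing copies gave 35 genes (17 higher, 18 lower), and the log2 difference of Rps13 became -0.065 where it had been 0.94, since its copy's counts were added. Without the time block 25 genes passed (8 higher, 17 lower, 32% higher). Deviations of the libraries paired by time correlated at 0.112 for CT2, 0.022 for CT6 and 0.126 for CT10, so the pairing was not borne out at each time. The day minus night count of 3 genes was 3 with DESeq2 size factors, 8 with no filter and 0 with the DESeq2 test (61 at an unadjusted p below 0.05). It was 1 with limma-trend, 0 without the time block (406 unadjusted) and 0 with copies summed (473). Leaving out the pair of CT2, of CT6 or of CT10 gave 0 to 4 genes (396 to 491 unadjusted), and no night pair was left out. The cause of these moves was not tested, apart from the sums.

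Of the 50 genes, 14 passed under every alternative that gave a value. These include 6 pseudogenes or models for which the summed alternative gave no value of their own, and also the named genes Nr3c1, Etnppl, Hjurp, Ift80 and Gbp2b. Without the CT2, CT6 and CT10 pair, 7, 22 and 12 of the 50 did not pass. Gpx3 missed the threshold in the fit of all 12 libraries (adjusted p = 0.084). Depth bears on genes of low count: of 2463 genes averaging under 50 counts per library 8 passed, the smallest difference among them being 1.05 on the log2 scale, while among 12739 genes at or above it 42 passed, down to 0.30.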
